A study of Drosophila melanogaster with 4 samples.

Results

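The 10 genes described here regulate transcription in spermatocytes. They were the testis TAF (tTAF) genes can, mia, sa, nht and rye, and the testis meiotic arrest complex (tMAC) genes aly, comr, topi, achi and vis. They were chosen by name, with no use of their signals, from 11982 genes that had a probe set with a single gene symbol. Earlier results of these data were known at the time. The platform annotation held 9 of the 10 genes under these symbols. The remaining gene, rye, was found as Taf12L, which lists rye as a synonym in RefSeq. The 10 genes had 11 probe sets, a pair of them for rye. A further probe set carried both the symbols achi and vis, which are adjacent genes in the RefSeq annotation, and it is given apart because its signal cannot be assigned to either.

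Primary spermatocytes of the fly testis switch on the genes that later build the sperm, and 2 sets of regulators are needed for that switch. The tTAFs are germ-line paralogues of the TBP-associated factors of the general transcription factor TFIID, and tMAC is a paralogue of the widely expressed dREAM complex. Males mutant for these regulators arrest as mature primary spermatocytes, do not enter the meiotic divisions and do not transcribe most spermatid differentiation genes. The regulators are therefore needed before the sperm protein genes are switched on, but transcripts of both can come from primary spermatocytes.

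RNA labelled as from heads of male Drosophila melanogaster that had fasted for 24 h was hybridised to 4 arrays, 1 for each of a TORC mutant, a WT control, a TORC neuronal rescue (spelled "resuce" in the labels) and a rescue control. TORC is the CREB coactivator now named Crtc. The labels give neither the TORC allele, the driver used for the neuronal rescue, what the rescue control flies carry, the age of the flies nor the number of heads in a sample. With 1 array a group there is no replicate error, so every ratio below compares single arrays and no p-value is given.

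Signals are probe set intensities on a linear scale, as the authors summarised them. A floor of 13.85, the median over the arrays of each array's 40th percentile, marks the level below which signals were not ordered. Ratios were taken after lower signals had been raised to the floor, so a fold with 1 signal below it is a lower bound, written "at least". A gene was called at a difference of 2-fold or more. Signals of different probe sets are not comparable as amounts of RNA, so each gene is compared only with itself across arrays. Crtc had a signal of 3.8 in the TORC mutant and 203 in the WT control, at least 14.7-fold lower in the mutant. In the neuronal rescue it had 37.4, against 6.7 in the rescue control, at least 2.70-fold higher. All 18 measured head genes lay above the floor on every array, with a median log2 ratio of 0.10 for the mutant over the WT control and -0.36 for the neuronal rescue over the rescue control. Of these, para was called lower in the neuronal rescue than in the rescue control, 1 of 18 where 1.51% of all genes were. Against the WT control rdgA, para and elav were called lower in the neuronal rescue, 3 of 18 where 2.78% of all genes were. The head median in that comparison was -0.34. The median signal over all probe sets was 19.4 in the mutant and 36.2 in the WT control, with 36.9 in the neuronal rescue and 20.2 in the rescue control. The WT control and neuronal rescue arrays thus had more probe sets above the floor than the others, at 53.4% in the mutant and 63.2% in the WT control, with 63.0% in the neuronal rescue and 54.9% in the rescue control.

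The regulators gave low signals on all 4 arrays. The 40 signals of the 10 genes, each at its brightest probe set, ran from 0.5 to 37.3. Above the floor lay 2 of 10 genes in the TORC mutant and 4 in the WT control, with 6 in the neuronal rescue and 2 in the rescue control. The genes can, aly and comr were below the floor on all arrays. In these RNA samples fewer cells of a type and less RNA per cell cannot be told apart.

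Among the tTAFs, mia, the paralogue of Taf6, was the only one of the 10 genes above the floor on every array. Its signal was 24.7 in the TORC mutant and 34.5 in the WT control, with 37.3 in the neuronal rescue and 28.1 in the rescue control. The mutant was 1.40-fold lower than the WT control and the neuronal rescue 1.33-fold higher than the rescue control, both short of 2-fold. These log2 differences of -0.48 and 0.41 were about as large as the spread between probe sets of one gene at such dim signals. That spread, a robust SD of the log2 ratio, was 0.47 in the first comparison (71 genes) and 0.42 in the second (54 genes), among probe sets with a mean signal up to 40. The direction of mia depended on the scaling of the arrays. For the mutant its log2 ratio was 0.35 with quantile normalization, 0.40 with median centring and -0.70 with centring on the head genes. For the neuronal rescue these values were -0.38, -0.44 and 0.73. Median centring also moved the median of all genes above the floor on every array, to 0.95 and -0.99.

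The Taf8 paralogue sa was the 1 regulator called at 2-fold by a probe set of its own. Its signal was 1.0 in the TORC mutant and 15.0 in the WT control, with 28.9 in the neuronal rescue and 1.7 in the rescue control. Both of the dim arrays lay below the floor, the WT control just above it and the neuronal rescue clearly above. The neuronal rescue was at least 2.09-fold higher than the rescue control, and it was called in no other comparison. The mutant was at least 1.08-fold lower than the WT control, a bound that the nearness of the WT control signal to the floor keeps small. The call of sa was lost after quantile normalization and after median centring of the arrays. With centring on the head genes it was kept, at a log2 ratio of 1.41.

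The Taf4 paralogue nht was above the floor on 1 array. It had 5.7 in the TORC mutant and 4.0 in the WT control, with 23.6 in the neuronal rescue and 0.6 in the rescue control. The neuronal rescue was at least 1.70-fold higher than the rescue control, short of 2-fold, and the mutant and WT control could not be ordered. The Taf12 paralogue rye had 13.9 in the mutant and 23.8 in the WT control, with 16.4 in the neuronal rescue and 9.0 in the rescue control at its brighter probe set. It was 1.71-fold lower in the mutant and at least 1.18-fold higher in the neuronal rescue, log2 ratios of -0.78 and 0.24. For the mutant the ratio turned to 0.27 with quantile normalization and 0.11 with median centring and was -0.07 as the mean over both probe sets, and for the neuronal rescue it was 0 under all of these. With centring on the head genes the ratios were -0.77 and 0.59. The other rye probe set stayed below the floor on all arrays, at 1.0, 8.9, 2.4 and 8.7 in the mutant, WT control, neuronal rescue and rescue control. The Taf5 paralogue can stayed below the floor too, with 2.1 in the mutant and 9.4 in the WT control, with 9.7 in the neuronal rescue and 9.7 in the rescue control.

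Among the tMAC genes, topi, which encodes a zinc finger protein, had 1.6 in the TORC mutant and 12.5 in the WT control, both below the floor. Its signal was 20.2 in the neuronal rescue and 16.5 in the rescue control, 1.22-fold higher in the neuronal rescue. This log2 ratio of 0.29 turned to -0.61 with quantile normalization and -0.56 with median centring, and was 0.62 with centring on the head genes. Its rescue control signal above the floor set topi apart from sa and nht, which were below it there.

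The tMAC gene aly, the paralogue of the dREAM subunit gene mip130, had 3.8 in the TORC mutant and 4.8 in the WT control, with 10.5 in the neuronal rescue and 8.3 in the rescue control. For comr, another core subunit of the complex, the signals were 5.2 in the mutant and 7.0 in the WT control, with 11.1 in the neuronal rescue and 0.5 in the rescue control. No level can be given to either gene on any array beyond this bound at the floor.

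The paralogous homeodomain genes achi and vis are the DNA-binding TGIF-type members of the complex. The achi probe set had 12.9 in the TORC mutant and 24.3 in the WT control, at least 1.75-fold lower in the mutant, and 12.2 in the neuronal rescue and 10.2 in the rescue control. It was above the floor in the WT control alone. The log2 ratio of the mutant, -0.81, became 0.14 with quantile normalization and -0.03 with median centring, and was -0.80 with centring on the head genes. The vis probe set had 1.0 in the mutant and 12.9 in the WT control, with 14.0 in the neuronal rescue and 9.7 in the rescue control, so it passed the floor only in the neuronal rescue by 0.02 in log2 units.

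The probe set shared by achi and vis was above the floor on all arrays. It had 25.8 in the TORC mutant and 74.1 in the WT control, with 62.8 in the neuronal rescue and 30.4 in the rescue control. The mutant signal was 2.87-fold lower than the WT control signal, and the neuronal rescue signal 2.07-fold higher than that of its control. Both log2 ratios, -1.52 and 1.05, kept their direction but shrank to -1.03 and 0.46 with quantile normalization and to -0.64 and 0.19 with median centring. With centring on the head genes they were larger, at -1.74 and 1.37. The probe sets of the single genes were too dim to set beside it: that of achi was below the floor in the neuronal rescue and the rescue control, and that of vis below it in the mutant and the WT control. The shared probe set is not counted among the 10 genes.

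**Figure D1:**
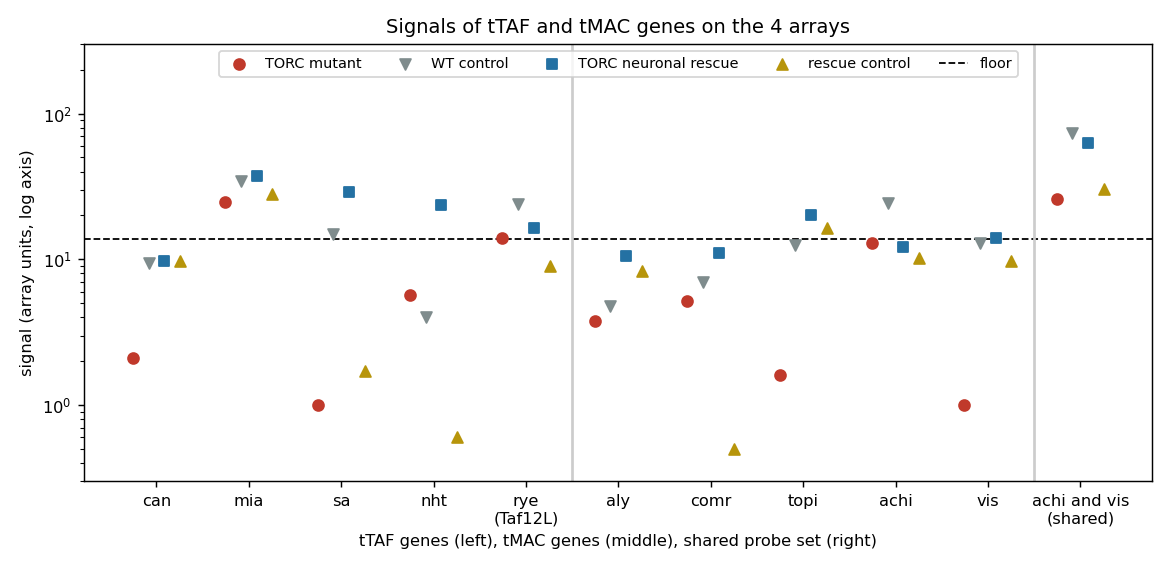
Signal of each of the 10 regulator genes at its brighter probe set, and of the probe set shared by achi and vis, on the 4 arrays (1 point an array, log axis, no replicates). The dashed line is the floor of 13.85. Only mia and the shared probe set lie above it on all arrays, and can, aly and comr lie below it on all arrays.

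In the comparison of the TORC mutant with the WT control, none of the 10 regulators was lower in the mutant by 2-fold or more, where 11.6% of all genes were, and none was at least 2-fold higher, where 1.74% of all genes were. Their log2 ratios ran from -0.81 (achi) to 0 with a median of 0, and the median over all genes was also 0. The floor set that median and upper limit for the regulators. Both signals of can, nht, aly, comr, topi and vis lay below it. Without a floor the medians were -0.84 for the regulators and -0.06 over all genes. The comparison of the neuronal rescue with its own control shares no array with the first, and in it sa was the 1 of 10 called higher. Over all genes 12.8% were higher and 1.51% lower, and no regulator was lower. The median log2 ratio of the 10 genes was 0.13, against 0 over all genes. A count of 0 or 1 among 10 genes is near these backgrounds. No probe set of a single regulator was both lower in the mutant and higher in the neuronal rescue at 2-fold (9.26% of all genes). The uncounted probe set shared by achi and vis was both, at 2.87-fold and 2.07-fold. Its difference in the neuronal rescue fell short of 2-fold with quantile normalization, and both differences did with median centring.

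The signals set how much of a change could be seen. Against an array at the floor, a call needs a signal of 27.7 or more. Of the 10 regulators, 2 were that bright in the neuronal rescue (mia and sa) and 1 in the WT control (mia). For the others a 2-fold call was therefore out of reach, and the absence of calls says little. The exceptions had both signals of a comparison above the floor. These were rye, measured as 1.71-fold lower in the mutant, and topi, measured as 1.22-fold higher in the neuronal rescue. Without the floor, the deposited signals of can, sa, topi and vis were at least 2-fold lower in the mutant (4 of 10, where 23.2% of all genes were). Those of sa, nht and comr were higher in the neuronal rescue (3 of 10, where 21.3% of all genes were). Only sa was in both sets, 1 of 10, where 16.1% of all genes were. Of the bright-array signals behind those calls, that of sa on both arrays and that of nht in the neuronal rescue lay above the floor.

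The remaining comparisons share an array with each of those above. In the neuronal rescue against the WT control none of the 10 genes was called higher or lower, where 5.29% and 2.78% of all genes were. The log2 ratios there ran from -0.81 (achi) to 0.95 (sa), with 0.77 for nht and 0.54 for topi. Those of achi, nht and topi are lower bounds in size, since the lower signal of each lay below the floor. In the TORC mutant against the rescue control none was called higher or lower either, where 0.81% and 1.86% of all genes were. On these arrays the ratios of the 10 genes lay between -0.25 (topi) and 0.01 (rye), which are also bounds set by the floor.

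The sperm transcripts were followed on the same arrays. Of 25 measured spermatid genes, 23 were at least 2-fold lower in the TORC mutant and 24 at least 2-fold higher in the neuronal rescue, with median log2 ratios of -4.26 and 5.0. Over all genes the shares were 11.6% and 12.8%. Both medians are lower bounds in size, set by signals below the floor. The spermatid list was chosen with earlier results of these data known, so its counts are a description and no independent test. None of the 25 lay above the floor in the mutant and 23 did in the WT control, whereas 24 did in the neuronal rescue and 4 in the rescue control. Mst77F, a sperm chromatin protein gene, had 9.9 in the mutant and 1102 in the WT control, with 2070 in the neuronal rescue and 14.2 in the rescue control. Mst87F, a sperm tail protein gene, had 6.1 in the mutant and 789.7 in the WT control, with 1826 in the neuronal rescue and 10.8 in the rescue control. The mitofusin gene fzo, used in spermatids and known to depend on the tTAF and tMAC genes, had 10.2 in the mutant and 35.2 in the WT control, with 51.4 in the neuronal rescue and 7.1 in the rescue control. Prosalpha4T1, a testis proteasome subunit gene, stayed below the floor on all arrays, and Prosalpha3T passed it only in the neuronal rescue, at 32.5. Genes of other male organs moved with them: the median signal of 14 seminal fluid genes was 4.25 in the mutant and 611 in the WT control, with 732.5 in the neuronal rescue and 5.6 in the rescue control. Of these 14 genes, 2 were above the floor in the mutant and 14 in the WT control, with 14 in the neuronal rescue and 4 in the rescue control. The part of tissue other than head in the sperm and regulator signals was not tested.

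Of 11 measured comet and cup genes, most of them transcribed after meiosis, 6 were lower in the mutant and 9 higher in the neuronal rescue. The shares of all genes called in these directions were 11.6% and 12.8%. The comet gene boly had 4.7 in the mutant and 158 in the WT control, with 247.6 in the neuronal rescue and 6.3 in the rescue control. Not called in either comparison were m-cup, above the floor on all arrays at 106 in the mutant and 176.6 in the WT control, with 213 in the neuronal rescue and 108 in the rescue control, and p-cup, which had 14.5, 16.6, 12.4 and 1.2 in the same order.

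**Figure D2:**
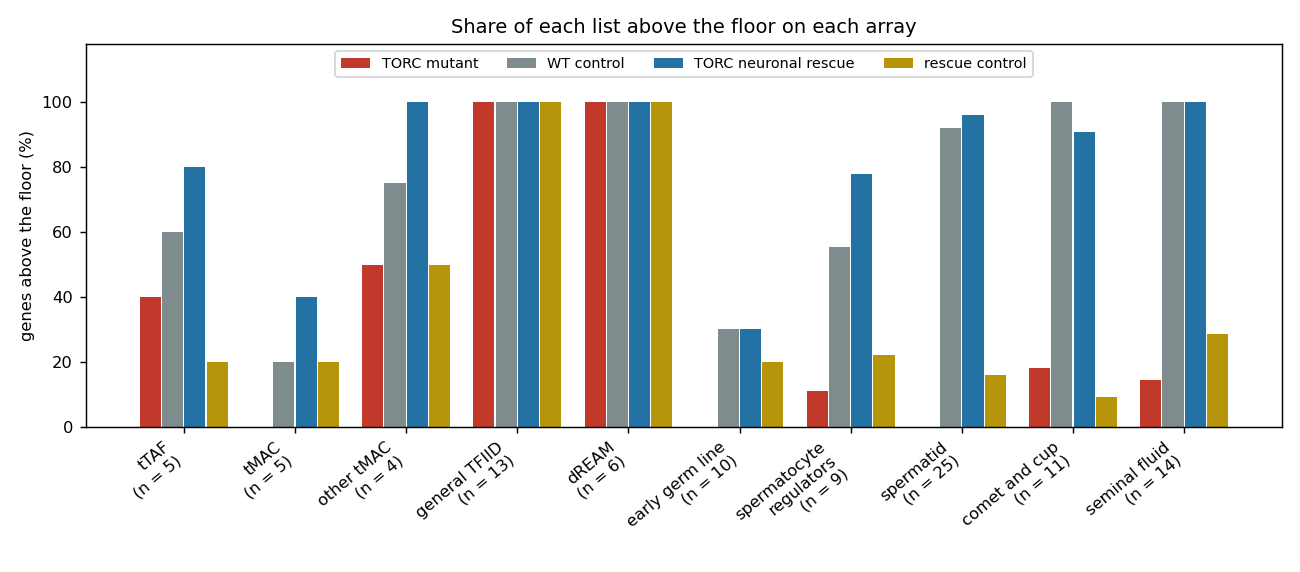
Percentage of the measured genes of each list with a signal above the floor of 13.85 on each array (bars, 1 array a group, no error). Spermatid genes number 0 of 25 in the TORC mutant and 23 of 25 in the WT control, while the 5 tMAC genes number 0 and 1 there. The 5 tTAF genes number 2 and 3, and of all 11982 genes (not drawn) 7908 and 9547 pass the floor.

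Other genes of the spermatocyte stage were partly called. Of 9 measured spermatocyte regulators outside the tTAF and tMAC sets, 2 were at least 2-fold lower in the TORC mutant (fest and bol) and 4 at least 2-fold higher in the neuronal rescue (fest, bol, tbrd-1 and Rbp4). Over all genes the shares were 11.6% and 12.8%. The list median was -0.41 for the mutant and 0.99 for the neuronal rescue, both lower bounds in size. The gene fest encodes the partner of the RNA-binding protein Rbp4, and together they hold back cyclin B translation in immature spermatocytes. Its signal was 0.5 in the mutant and 301 in the WT control, with 553 in the neuronal rescue and 4.8 in the rescue control, at least 21.8-fold lower and at least 39.9-fold higher. Rbp4 itself had 6.2 in the mutant and 26.5 in the WT control, with 36.6 in the neuronal rescue and 1.7 in the rescue control.

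The bromodomain protein gene tbrd-1, whose product cooperates with the tTAFs, had 7.3 in the TORC mutant and 20.8 in the WT control, with 42.9 in the neuronal rescue and 1.5 in the rescue control. Its relative tbrd-2 had 1.3 in the mutant and 13.3 in the WT control, with 27.6 in the neuronal rescue and 7.1 in the rescue control, just short of 2-fold in the neuronal rescue. In both, as for sa, the neuronal rescue was brightest and the mutant and rescue control lay below the floor. By contrast dany and tbrd-3 stayed below the floor on all arrays. The translation regulator gene bol had 76.5 in the mutant and 233 in the WT control, with 329.8 in the neuronal rescue and 70.1 in the rescue control at its brightest probe set. Another probe set of bol went the other way in the neuronal rescue, at 15.2 against 39.1 in the rescue control. The meiotic phosphatase gene twe was not called, at 11.7 in the mutant and 18.4 in the WT control, with 17.7 in the neuronal rescue and 15.0 in the rescue control. The zinc finger gene kmg passed the floor only in the neuronal rescue, at 15.0.

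The earliest germ line stages gave few signals above the floor. Of 10 genes of stem cells and spermatogonia, none lay above it in the TORC mutant and 3 did in the WT control, with 3 in the neuronal rescue and 2 in the rescue control. The median log2 ratio of this list was 0 in both main comparisons, a value set by genes with both signals below the floor. Without a floor the medians were -0.93 and 0.25, against -0.06 and -0.03 over all genes. The spermatogonial differentiation genes bgcn and tut were each called in 1 main comparison. That is 1 of 10 genes in each main comparison, near the 11.6% of all genes lower in the mutant and 12.8% higher in the neuronal rescue. For bgcn the signals were 6.4 in the mutant and 23.4 in the WT control, with 34.7 in the neuronal rescue and 5.4 in the rescue control, at least 2.51-fold higher in the neuronal rescue. For tut they were 5.0 in the mutant and 32.2 in the WT control, with 15.6 in the neuronal rescue and 12.0 in the rescue control, at least 2.32-fold lower in the mutant. Outside the main comparisons tut was also called, at 2.06-fold lower in the neuronal rescue than in the WT control. It was the 1 of 10 genes called lower there, where 2.78% of all genes were. The calls of bgcn and tut in the main comparisons were both lost after quantile normalization and after median centring. Both were kept with centring on the head genes, at log2 ratios of 1.67 for bgcn and -1.21 for tut. Their partner bam stayed below the floor on all arrays. So did the germ line genes vas, zpg and aub, and nos, which the annotation lists as nanos. In the neuronal rescue comparison the piRNA pathway gene piwi and the chromatin reader gene Phf7 went against bgcn, though neither was called. Their signals in the neuronal rescue and the rescue control were 13.5 and 16.7 for piwi and 9.6 and 18.5 for Phf7. AGO3 went with bgcn there, at 17.2 and 9.0, and was not called either. In the other main comparison Phf7 was lower in the mutant, as bgcn was, at 11.2 against 22.6 in the WT control.

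Somatic testis genes were measured as well. The hub ligand gene upd1 was below the floor on all arrays. The cyst cell gene tj had 12.5 in the TORC mutant and 12.1 in the WT control, with 15.1 in the neuronal rescue and 17.7 in the rescue control. The other somatic genes measured, zfh1, eya and so, are also used in the head or eye and were above the floor on all arrays. The eye and cyst cell gene eya went against the sperm genes, at 309.9 in the mutant and 137 in the WT control, with 57.5 in the neuronal rescue and 269 in the rescue control. Eggshell and oocyte genes lay above the floor for 1 of 10 genes in the mutant, 2 of 10 in the WT control and none in the rescue arrays.

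**Figure D3:**
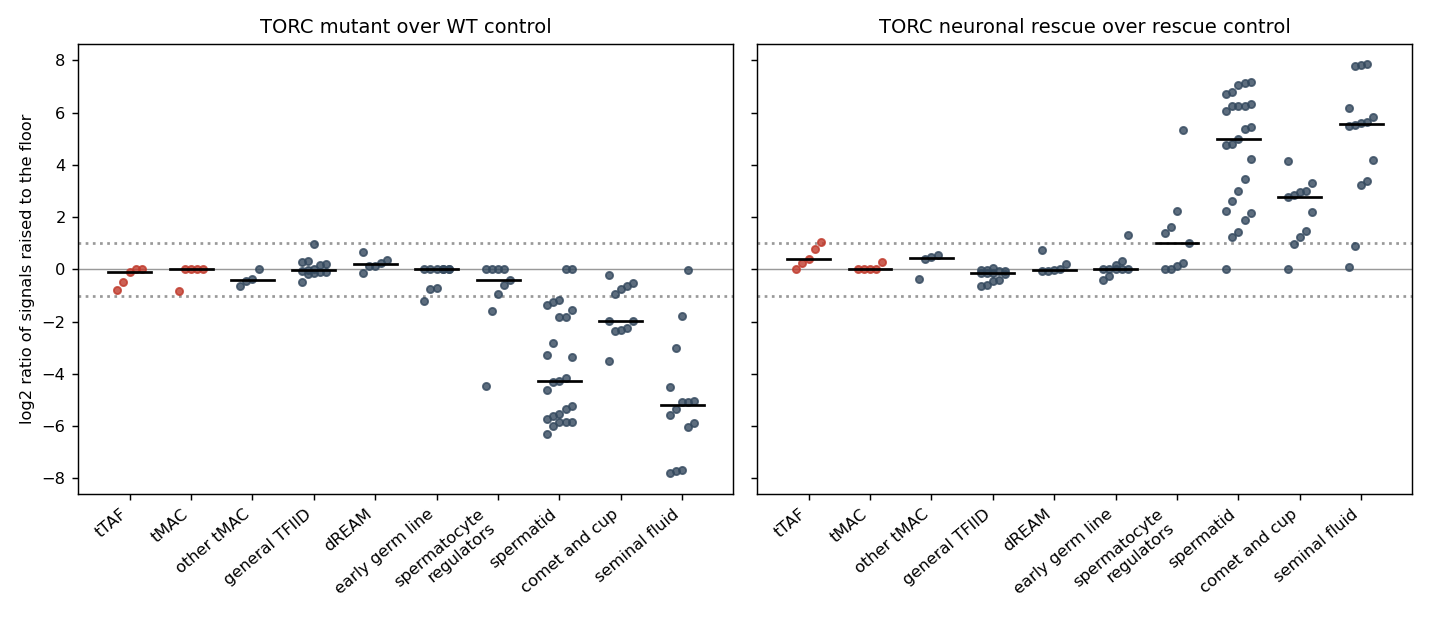
Log2 ratio of signals raised to the floor for each gene (points) and the list median (bar), in the TORC mutant over the WT control (left) and the TORC neuronal rescue over the rescue control (right), with dotted lines at 2-fold. The red tTAF and tMAC points lie within the dotted lines except sa at 1.06 on the right, while the spermatid medians are -4.26 and 5.0.

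The partners that tMAC shares with complexes of other cells were above the floor on every array. Caf1-55, a histone chaperone of several chromatin complexes, had 146 in the TORC mutant and 191 in the WT control, with 138 in the neuronal rescue and 180 in the rescue control. The LIN-37 homologue gene mip40, which serves both dREAM and tMAC, had 92.8 in the mutant and 124.7 in the WT control, with 146.7 in the neuronal rescue and 99.2 in the rescue control. Neither was called in the main comparisons. The testis subunits outside the 10 genes again lay near or below the floor. The CXC protein gene tomb, a paralogue of mip120, had 3.5 in the mutant and 21.6 in the WT control, with 19.1 in the neuronal rescue and 4.5 in the rescue control. For wuc, a paralogue of lin-52, the signals were 0.6 in the mutant and 11.1 in the WT control, with 18.2 in the neuronal rescue and 4.3 in the rescue control.

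The widely expressed paralogues were above the floor throughout. All 13 measured general TFIID genes passed it on the 4 arrays, and none was called in either main comparison, with medians of -0.03 in the TORC mutant and -0.13 in the neuronal rescue. Taf6, beside mia, had 207.9 in the mutant and 166 in the WT control, with 154 in the neuronal rescue and 211.9 in the rescue control. For Taf8, beside sa, the signals were 20.3 in the mutant and 22.4 in the WT control, with 23.1 in the neuronal rescue and 25.8 in the rescue control. Log2 ratios of Taf4, Taf5 and Taf12 were -0.07, 0.16 and 0.29 in the mutant and -0.13, -0.08 and -0.40 in the neuronal rescue. Taf7 came nearest to a call, at 0.97 in the mutant. None of the 6 measured dREAM genes was called in these comparisons. The exception outside them was mip130, beside aly, at 65.0 in the TORC mutant against 21.2 for the rescue control, a log2 ratio of 1.62.

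The neuronal rescue and WT control arrays, on which spermatid genes were bright, differed in how bright they were. All 23 spermatid genes above the floor on both were brighter in the neuronal rescue, also under each of the 3 other scalings, with a median log2 ratio over the WT control of 0.89 and a range of 0.17 to 1.48. The corresponding medians were 0.70 over 10 comet and cup genes, 0.50 over 5 spermatocyte regulators and 0.12 over 14 seminal fluid genes. Only 3 of the 10 tTAF and tMAC genes were above the floor on both arrays. Their log2 ratios were 0.95 for sa, 0.11 for mia and -0.54 for rye. Over all genes above the floor on both arrays the median was 0.01, and the spread between dim probe sets of one gene was 0.61 in this comparison.

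**Figure D4:**
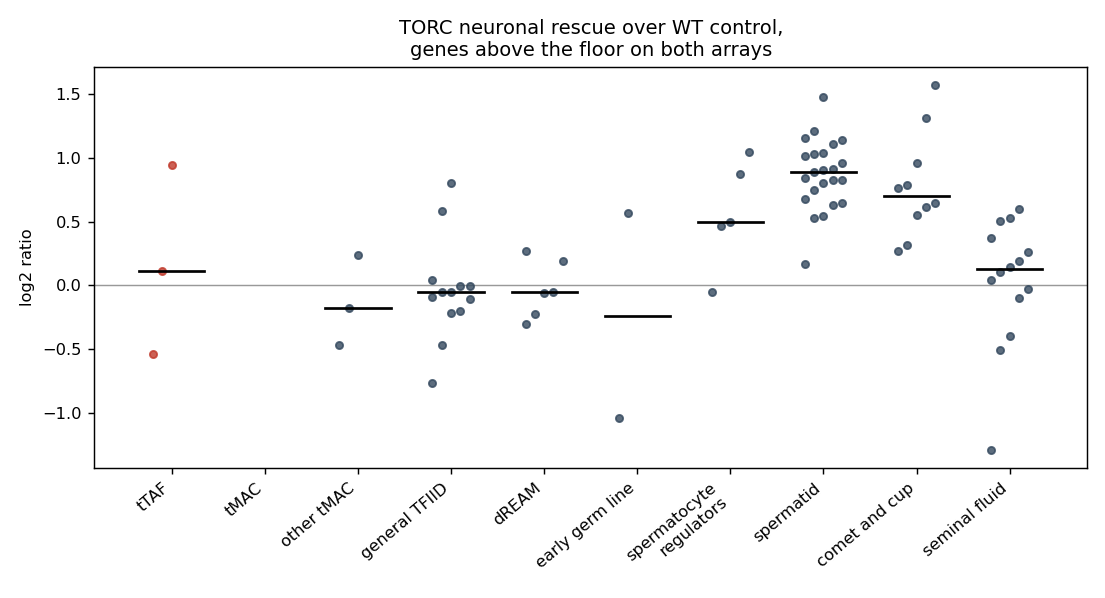
Log2 ratio of the TORC neuronal rescue over the WT control for genes above the floor on both arrays (points) with the list median (bar). The 23 spermatid genes lie between 0.17 and 1.48, and the 3 tTAF genes lie at -0.54, 0.11 and 0.95, with no tMAC gene above the floor on both arrays.

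A mean profile was taken over the 7 regulators that passed the floor on any array, which by itself favours the arrays where they passed it, since nht and vis did so in the neuronal rescue alone and achi in the WT control alone. It stood at -0.21 in the TORC mutant and 0.10 in the WT control, with 0.25 in the neuronal rescue and -0.15 in the rescue control. Genes outside the lists were ranked by their distance from this profile over the 4 arrays, in log2 units. The 8 nearest were chb, CG6830, CG32855, CG31807, Tpc2, Lcp65Ac, l(1)10Bb and rux, at 0.05 to 0.07. Among them chb had 286 in the mutant and 342.7 in the WT control, with 389 in the neuronal rescue and 300.5 in the rescue control. The likeness is a description over 4 arrays only: 58 of 10068 genes lay nearer to the profile than the nearest regulator, at 0.13, and 5278 lay nearer than the farthest, at 0.68.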

How the data were processed

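Expression was measured on 4 Affymetrix Drosophila arrays, 1 for each of 4 groups taken from the sample titles. What the authors deposited was 1 linear intensity for each probe set, made with MAS5, per the submitters' processing notes, with the version not given in the sources used here. Each column had a 2% trimmed mean of 150.005, so scaling had been done by the authors, and none was added. Total RNA was labelled with biotin, per the labels. The number of arrays limits the precision, since no group has a replicate.

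Of 18952 probe sets, 183 were controls and were left out. Among the other 18769, 13647 had 1 gene symbol in the platform annotation, 402 had several and 4720 had none. Only those with 1 symbol were named, and the brightest by mean log2 signal stood for each of 11982 genes. Aliases were matched through RefSeq (Release 6). Signals were raised to the floor and log2 transformed, and a gene was called at a log2 ratio of 1 or beyond. Calling was tested on simulated data.

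The 10 genes and the 12 further gene lists were chosen with earlier results of these data known. Of 172 listed genes, 27 had no probe set with 1 symbol and were not used here. The naming rule took all 10 genes, their general paralogues, the brightest genes of each list, and genes that broke a list's direction or passed the floor where most of the list did not. For the lists of other tissues counts are given in place of most names. Alternatives were quantile normalization, median centring, centring on the head genes, floors at the 20th and 60th percentiles (3.25 and 59.5), the mean over probe sets, thresholds of 1.5-fold and 3-fold, and, added after seeing the data, no floor. Tools were Python 3.11.15, numpy 2.4.6, pandas 2.3.3 and matplotlib 3.10.9.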

Additional observations from a re-analysis of the deposited data

How the results depend on the processing

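Counts of regulators called are followed here by the share of all genes called at the same setting. With the floor at the 20th percentile, 4 of the 10 regulators were lower in the mutant against the WT control (20.3% of all genes; median log2 ratio -0.84, against -0.02 over all genes) and 3 were higher in the neuronal rescue than in the rescue control (19.2%; median 0.47, against 0). In the same setting 2 were higher in the neuronal rescue than in the WT control (9.25%) and 4 lower in the mutant than in the rescue control (8.66%). Without a floor these values were 4 (23.2%; -0.84), 3 (21.3%; 0.47), 2 (11.3%) and 4 (13.9%; median -0.48), and 2 were higher in the mutant than in the rescue control (8.70%). At 1.5-fold, 2 were lower in the mutant against the WT control (17.4%), 2 higher in the neuronal rescue than in the rescue control (16.7%), and 2 higher (13.4%) and 1 lower (8.20%) than in the WT control. The call of sa in the neuronal rescue was lost with quantile normalization, median centring, the floor at the 60th percentile and the 3-fold threshold, each of which left 0 regulators called there (10.5%, 9.97%, 4.49% and 9.49% of all genes). Centring on the head genes gave 2 (15.6%; median 0.47, against 0.18 over all genes) in that comparison and 2 higher in the neuronal rescue than in the WT control (12.0%).

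The 1 early germ line gene called in each main comparison became 0 in both with quantile normalization, median centring, the 60th percentile floor and the 3-fold threshold. Over all genes 9.11%, 8.25%, 3.15% and 7.77% were lower in the mutant there, and 10.5%, 9.97%, 4.49% and 9.49% higher in the neuronal rescue. The early germ line counts were 3 and 3 of 10 with the 20th percentile floor (20.3% and 19.2% of all genes). They were 5 and 3 without a floor (23.2% and 21.3%), and 3 in the mutant at 1.5-fold (17.4%). Of the 9 other spermatocyte regulators, 1 was lower in the mutant with median centring (8.25%) or the mean over probe sets (11.6%), and 4 at 1.5-fold (17.4%). With the 20th percentile floor or none 7 were lower (20.3% and 23.2%), while 2 were higher in the neuronal rescue with the 60th percentile floor (4.49%). The spermatid counts ran from 16 to 25 in the mutant and from 17 to 25 in the neuronal rescue over the 9 alternatives. The shares of all genes ran from 3.15% to 23.2% and from 4.49% to 21.3%. Median centring moved the median log2 ratio over genes that passed the floor throughout to 0.95 in the mutant and -0.99 in the neuronal rescue, against 0.07 and -0.14 as deposited, 0.18 and -0.25 with quantile normalization and -0.15 and 0.19 with centring on the head genes. The cause of each shift was not tested, other than that a lower floor lets dimmer signals be ordered. Signal over the floor is the limit on every regulator but mia in at least 1 main comparison. No paired analysis was possible because each group has 1 array.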

Other observations

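Genes of other tissues were measured on the same arrays. Of 14 measured seminal fluid genes, 13 were lower by 2-fold or more in the TORC mutant and 12 higher by as much in the neuronal rescue, each against its own control. The shares of all genes were 11.6% and 12.8%. The ejaculatory bulb gene EbpIII was called in neither comparison, at 7725 in the mutant and 7925 in the WT control, with 8165 in the neuronal rescue and 7644 in the rescue control. Of 10 measured gut enzyme genes, none passed the floor in the mutant and 9 did in the WT control, while 8 did in both the neuronal rescue and the rescue control. The trypsin gene alphaTry, for example, had 2.5 in the mutant and 2347 in the WT control, with 1802 in the neuronal rescue and 541 in the rescue control.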
